A study of Mus musculus with 7 samples.

Results

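Integrins and laminins link the cell surface to the matrix outside it, and 35 of the 18193 genes measured on the arrays belong to these families by name. Members were taken by symbol from the probe sets that the platform annotation assigns to a single gene: 24 integrin subunits, 10 laminin chains and Itgbl1, which the naming pattern also takes in. Itgbl1 encodes a secreted protein that resembles part of an integrin beta chain and is no receptor subunit. Where a gene had several probe sets, the brightest on average was used. All 35 were tested. On average over the arrays 32 lay above the background level, a log2 level of 5.787 derived from genes of olfactory, vomeronasal and taste receptors, and 27 did so on all 7 arrays. Itgb7, Lama1 and Lamc3 lay at or below it.

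Integrins are pairs of an alpha and a beta chain that span the plasma membrane, bind matrix proteins or counter-receptors outside the cell and couple to the actin cytoskeleton inside it. Laminins are trimers of an alpha, a beta and a gamma chain and form the polymer sheet of basement membranes. In skeletal muscle the sheath of each fibre contains the trimer of Lama2, Lamb1 or Lamb2, and Lamc1. Itga7 with Itgb1 and dystroglycan are the main receptors by which fibres hold on to it, and loss of LAMA2 causes a congenital muscular dystrophy in humans. A second set of integrins, built mostly on the beta chain Itgb2, is used by white blood cells to adhere and migrate.

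The samples were plantaris muscles of Pax7-DTA mice aged 4 months, bred from Pax7-CreER and Rosa26-DTA parents. Every group carried these alleles. Tamoxifen activates a Cre recombinase expressed from Pax7, which switches on diphtheria toxin in satellite cells, the stem cells of muscle. Deletion is therefore limited to cells that express Pax7 when the drug is given. The groups were tamoxifen with overload for 1 week (3 arrays: replicates 1 and 2 male, replicate 3 female), vehicle with overload for 1 week (2 arrays: replicate 1 female, replicate 2 male), tamoxifen with sham surgery (1 male array) and vehicle with sham surgery (1 male array). The titles read as single mice, while the design text speaks of muscles pooled from 11 animals, so the number of animals behind an array is uncertain and p-values measure the spread between these arrays only.

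As a check of tissue and treatment, all 8 muscle fibre markers lay above background on every array. Pax7 read 5.88, 3.46 and 6.92 on the tamoxifen overload arrays and 8.10 and 8.45 on the vehicle overload arrays, and 5.40 on the tamoxifen sham array and 6.55 on the vehicle sham array. Median signals of the 7 arrays ran from 88.2 to 127.7. Precision is limited by how few arrays there are. Levels are given as log2(signal + 1), and a difference of 1 is a doubling. In whole muscle, more cells of a type and more RNA per cell cannot be told apart.

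Upstream sequences of 6 members are shown: those called in overload against sham whose window lies wholly outside the RefSeq gene record. Of them Itga1, Itga4, Itga5, Itgam and Itgb1 rose and Itgb5 fell, as described below. Each is the 250 bases before the transcript start that the sequence table uses, 5′ to 3′ on the strand of the gene, from RefSeq on build GRCm38.p6. Of the 35 members 23 have a window in that table. For 12 of these, Itgax and every laminin chain with a window among them, the table's start lies inside the gene record, so that part or all of the window is within the gene. Those are not printed. Capitals mark, on either strand, GAGGAA (the core bound by the leukocyte factor PU.1 and related ETS factors), TGANTCA (AP-1) and GGAATG (TEAD).
Itgam (chr7:128062390-128062639, plus strand): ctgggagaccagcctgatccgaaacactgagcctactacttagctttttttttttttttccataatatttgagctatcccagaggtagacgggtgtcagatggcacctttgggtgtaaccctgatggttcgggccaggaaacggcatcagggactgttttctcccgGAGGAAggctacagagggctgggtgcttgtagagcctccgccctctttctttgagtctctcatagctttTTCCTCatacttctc
Itga5 (chr15:103366792-103367041, minus strand): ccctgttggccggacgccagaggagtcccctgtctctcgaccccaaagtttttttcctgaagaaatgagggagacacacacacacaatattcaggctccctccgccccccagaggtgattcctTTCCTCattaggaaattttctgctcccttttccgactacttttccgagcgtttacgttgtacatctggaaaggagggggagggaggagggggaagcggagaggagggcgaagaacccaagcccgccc
Itgb1 (chr8:128685404-128685653, plus strand): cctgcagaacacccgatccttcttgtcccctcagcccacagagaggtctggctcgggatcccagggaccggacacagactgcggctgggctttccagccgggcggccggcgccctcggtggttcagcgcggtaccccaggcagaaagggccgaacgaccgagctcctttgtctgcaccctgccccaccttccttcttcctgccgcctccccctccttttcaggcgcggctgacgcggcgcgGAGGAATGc
Itga4 (chr2:79255176-79255425, plus strand): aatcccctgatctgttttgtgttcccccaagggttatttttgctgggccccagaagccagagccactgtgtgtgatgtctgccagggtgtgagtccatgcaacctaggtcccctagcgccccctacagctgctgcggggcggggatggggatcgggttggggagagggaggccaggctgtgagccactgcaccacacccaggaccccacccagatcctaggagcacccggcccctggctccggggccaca
Itga1 (chr13:115101965-115102214, minus strand): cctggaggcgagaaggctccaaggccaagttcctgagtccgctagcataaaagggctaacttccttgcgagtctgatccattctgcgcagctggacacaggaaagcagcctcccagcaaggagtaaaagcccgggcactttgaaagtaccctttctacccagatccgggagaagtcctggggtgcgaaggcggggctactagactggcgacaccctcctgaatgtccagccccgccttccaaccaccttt
Itgb5 (chr16:33829415-33829664, plus strand): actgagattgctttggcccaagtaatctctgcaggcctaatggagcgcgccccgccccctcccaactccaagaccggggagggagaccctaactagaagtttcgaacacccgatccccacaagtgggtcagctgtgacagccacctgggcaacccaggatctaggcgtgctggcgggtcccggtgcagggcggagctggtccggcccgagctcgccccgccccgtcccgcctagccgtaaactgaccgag
GAGGAA occurred at positions -84 and -15 before the start used for Itgam, the leukocyte alpha chain, in the reverse direction at -15. It also occurred in the windows of Itga5 (-127, reverse) and Itgb1 (-9, overlapping a TEAD match at -7). The windows of Itga4, Itga1 and Itgb5 held none of the 3 motifs. Of all 23 member windows 10 held GAGGAA, 1 TGANTCA and 2 GGAATG, while 23.3%, 6.75% and 12.6% of all 32851 windows did. The member counts include the 12 windows that lie partly or wholly inside the gene record. Those of Itgav, Lama2, Lama5, Lamb1, Lamb2 and Lamb3, which held GAGGAA, are among these 12. The E-box letters CANNTG, bound by myogenic factors, occurred in 18 of the 23, and in 66.2% of all windows. These are matches of letters and no evidence of binding.

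The first question was what 1 week of overload changed in these genes, averaged over both treatments. Of the 4 laminin chains of the fibre sheath 3 rose, with Lamb1 4.69-fold higher, and of 9 integrins of muscle fibres and myoblasts 6 rose and 1 fell, with Itga7 2.35-fold higher. Of 6 leukocyte integrins 3 rose: Itgb2 (3.81-fold), Itgam (2.86-fold) and Itgax, which lay below background on the tamoxifen sham array. In limma's test with Benjamini-Hochberg adjustment over all genes, 17 of the 35 members rose and 2 fell, Itgb4 and Itgb5, where 14.7% of all genes rose and 8.16% fell. The median log2 difference was 0.63 over the members and 0.07 over all genes. Scaling changed these counts. With arrays centred on their medians 9 members rose and 3 fell. Of all genes 1740 then rose and 2710 fell, where 2678 rose and 1485 fell on the deposited scale. Of the 24 integrin subunits 12 rose and 2 fell, and of the 10 laminin chains 4 rose. On 19 members every overload array lay above both sham arrays (23.1% of all genes), and on 1, Itgb4, below both (18.3% of all genes).

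**Figure D1:**
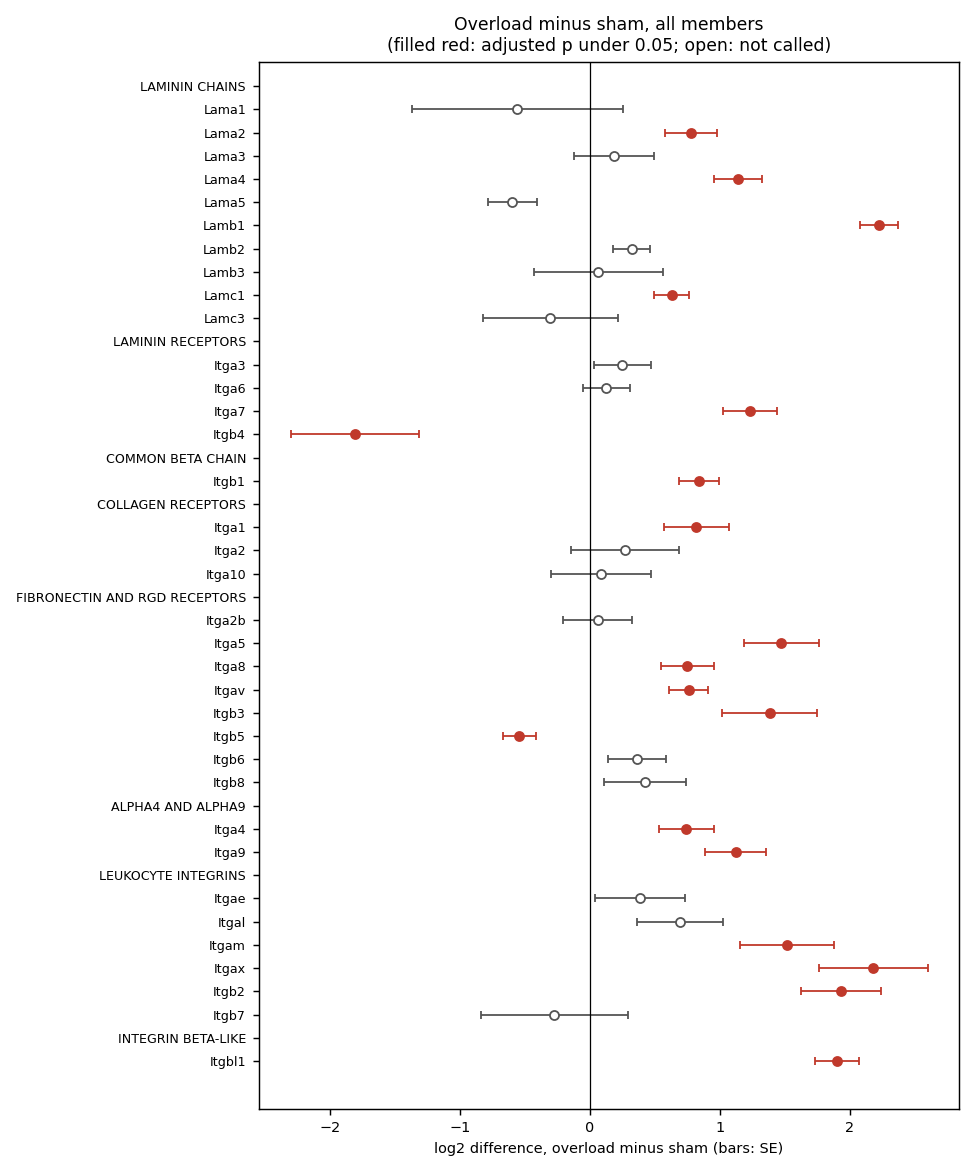
Log2 difference of overload minus sham for all 35 members, grouped by role, with bars for the SE of the limma fit. Filled red points passed the adjusted threshold: 17 lie right of 0 and 2, Itgb4 and Itgb5, left of it.

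Among the chains of the laminin in the fibre sheath, Lamb1 (beta chain) rose the most of all 35 members. It stood at 12.09, 12.32 and 12.27 on the tamoxifen overload arrays and at 11.84 and 11.49 on the vehicle overload arrays, against 9.76 on the tamoxifen sham and 9.52 on the vehicle sham array. All overload arrays were high, the tamoxifen ones highest, and no overload array came near a sham array. The log2 difference was 2.23 ± 0.15 (SE; adjusted p = 0.0001192), and 2 further probe sets of Lamb1 above background gave 2.18 and 2.15.

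The alpha chain Lama2, the one mutated in the dystrophy named above, read 11.16, 10.66 and 11.26 with tamoxifen overload and 11.10 and 11.31 with vehicle overload, against 10.17 (tamoxifen) and 10.42 (vehicle) in sham muscle. The gamma chain Lamc1 read 11.11, 11.01 and 11.19 with tamoxifen overload and 11.36 and 11.03 with vehicle overload, against 10.50 (tamoxifen) and 10.36 (vehicle) in sham muscle. Both genes were higher on every overload array, by smaller steps than Lamb1. Their differences were 0.78 ± 0.20 (adjusted p = 0.02642) and 0.63 ± 0.13 (adjusted p = 0.01249), so the 3 chains of 1 trimer rose by unequal amounts on the log2 scale. Lamb2, the beta chain concentrated at the neuromuscular junction, lay between 10.02 and 10.20 on overload arrays, against 10.02 and 9.63 in tamoxifen and vehicle sham muscle, and did not pass (0.32 ± 0.14, adjusted p = 0.1543).

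Lama4, an alpha chain of blood vessels, nerve and regenerating fibres, read 11.10, 11.53 and 11.38 with tamoxifen overload and 11.11 and 10.54 with vehicle overload, against 10.03 (tamoxifen) and 9.61 (vehicle) in sham muscle. It rose by 1.14 ± 0.18 (adjusted p = 0.004116), with the groups apart and the male vehicle overload array lowest among the overloaded. A second probe set of Lama4 above background gave 0.88 without passing. Of 8 markers of endothelial cells 1 rose and 1 fell, near the 14.7% and 8.16% of all genes. Their mean level was 9.32 to 10.03 on overload arrays, against 9.57 and 9.46 on the tamoxifen and vehicle sham arrays. Their part in the change of Lama4 was not tested. Lama5, the other broad vascular chain, read 8.13 to 8.72 on overload arrays, against 9.05 (tamoxifen) and 8.69 (vehicle) in sham muscle. It stood at -0.59 ± 0.19 and just missed the threshold (adjusted p = 0.05826). It passed when only genes above background were tested and after quantile normalization or median centring. The chains of epithelial and other basement membranes did not pass: Lama3 (0.19, levels 6.42 to 6.96 over all arrays), Lamb3 (0.07, levels 4.29 to 7.75), Lamc3 (-0.30, levels 4.59 to 6.18) and Lama1 (-0.56, levels 1.51 to 4.54). Lama1 lay below background on every array.

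The laminin receptors moved unequally. Itga7, the alpha chain of the fibre's laminin receptor, read 10.91, 10.35 and 10.60 with tamoxifen overload and 10.74 and 11.29 with vehicle overload, against 9.86 (tamoxifen) and 9.52 (vehicle) in sham muscle. It rose by 1.23 ± 0.21 (adjusted p = 0.004721). The male vehicle overload array, lowest among overloaded muscles for Lamb1 and Lama4, was the highest for Itga7.

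Itgb1, the beta chain shared by Itga7 and most matrix receptors, read 12.75, 12.47 and 12.62 with tamoxifen overload and 12.72 and 13.01 with vehicle overload, against 11.88 (tamoxifen) and 12.005 (vehicle) in sham muscle. It rose by 0.84 ± 0.15 (adjusted p = 0.006731), again with the male vehicle overload array on top. Its 2 other probe sets above background gave 1.07 and 1.30. Of 6 probe sets for Itgb1, a further 3 lay below background.

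Itga6 and Itga3, other receptors for laminin, did not pass. Itga6, on levels of 10.21 to 11.05 over all arrays, stood at 0.13 ± 0.18 (adjusted p = 0.6836), and Itga3, on levels of 7.52 to 8.07, at 0.25 ± 0.22 (adjusted p = 0.4746). A second probe set of Itga6 gave 0.46 without passing. Of 2 further probe sets of Itga3, both below background on average, 1 passed at 2.17 (adjusted p = 0.02831) and the other gave -0.34. Itgb4, which pairs with Itga6 in the anchoring plaques of epithelia and in Schwann cells, fell. It read 5.55, 6.94 and 6.48 with tamoxifen overload and 6.66 and 5.36 with vehicle overload, against 7.59 (tamoxifen) and 7.78 (vehicle) in sham muscle, with 1 overload array of each treatment below background. The difference was -1.81 ± 0.49 (adjusted p = 0.0338). Of 4 Schwann cell markers measured 1, the myelin gene Mbp, fell (-1.07), and their mean level was 7.40 to 8.50 on overload arrays, against 8.17 and 7.99 on the tamoxifen and vehicle sham arrays. Their part in the change of Itgb4 was not tested.

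**Figure D2:**
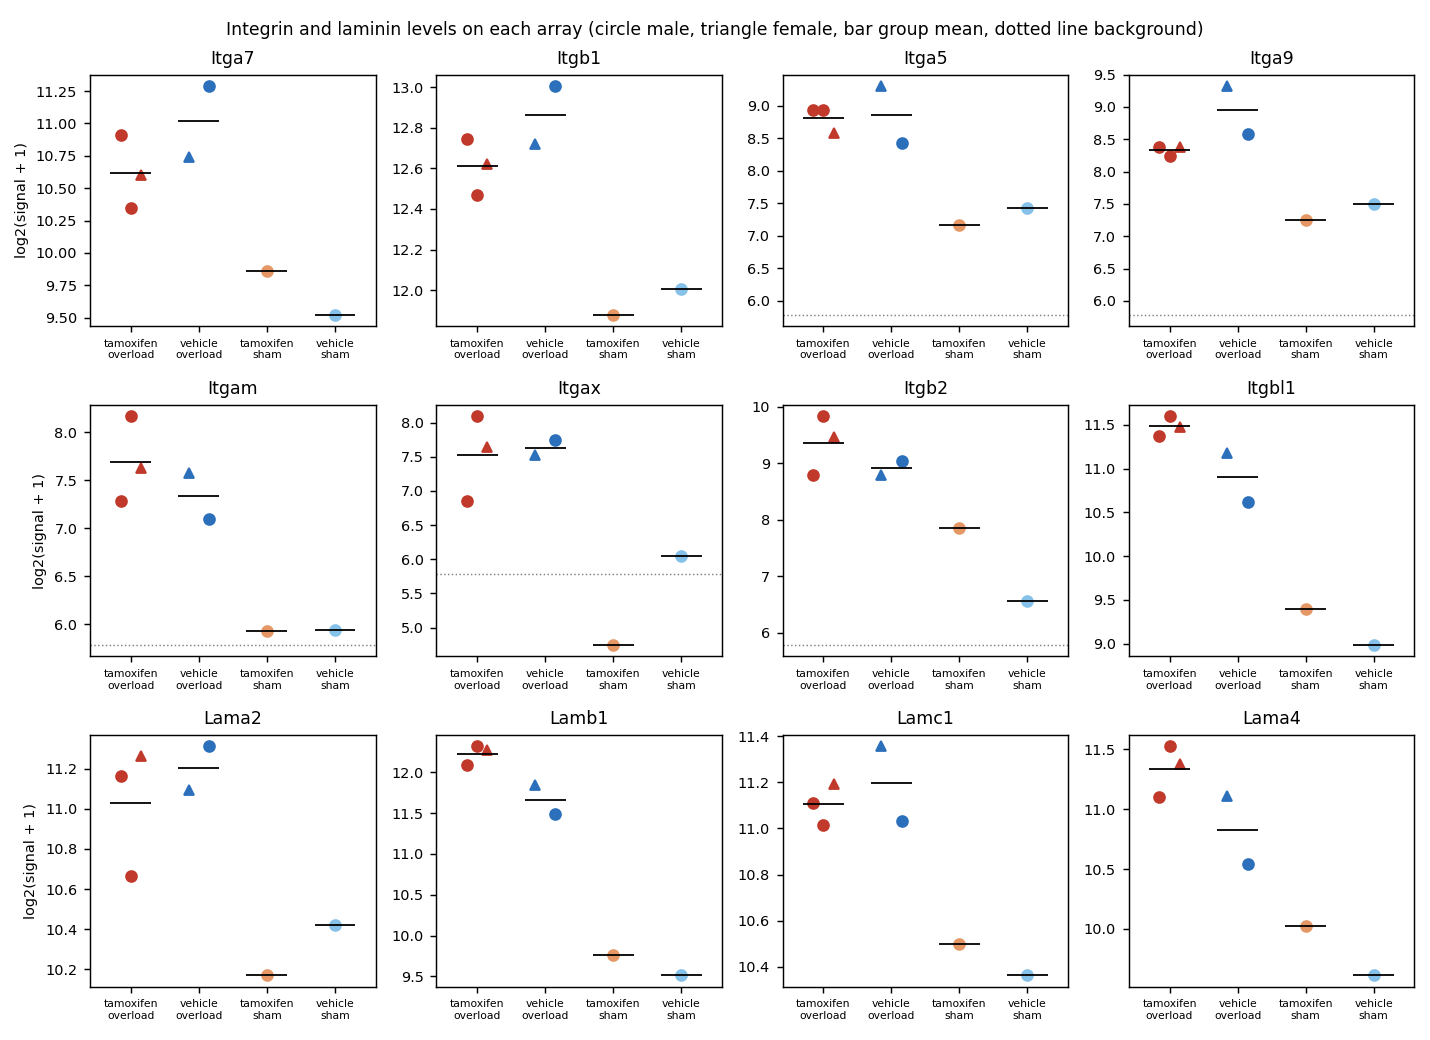
Level of 12 members on each array, as log2(signal + 1), with 1 panel per gene, circles for males, triangles for females and a bar at the mean of each group. In every panel all 5 overload arrays lie above both sham arrays; the dotted line marks background where it falls in range.

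Receptors for fibronectin and other ligands with the same short binding sequence rose in part, 4 of 8, and 1 fell. Itga5, the alpha chain of the fibronectin receptor, read 8.94, 8.93 and 8.57 with tamoxifen overload and 9.30 and 8.42 with vehicle overload, against 7.16 (tamoxifen) and 7.42 (vehicle) in sham muscle. Its difference was 1.47 ± 0.29 (adjusted p = 0.009168), and 2 other probe sets above background gave 2.07 and 2.82. The groups were well apart, and the female vehicle overload array was the highest.

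Itgav, the alpha chain that several beta chains share, read 12.55, 12.61 and 12.57 with tamoxifen overload and 12.36 and 12.82 with vehicle overload, against 11.85 (tamoxifen) and 11.96 (vehicle) in sham muscle. It rose by 0.76 ± 0.15 (adjusted p = 0.0097). Of its beta partners, Itgb3 rose and Itgb5 fell, so the partners did not move together. Itgb3, which also occurs on platelets and osteoclasts, read 7.36, 7.77 and 6.95 with tamoxifen overload and 6.92 and 6.62 with vehicle overload, against 5.36 (tamoxifen, below background) and 6.19 (vehicle) in sham muscle, a difference of 1.38 ± 0.37 (adjusted p = 0.02975). Itga2b, its platelet partner, with levels of 7.28 to 7.83, stood at 0.06 ± 0.27 (adjusted p = 0.9071), and 0 of 5 platelet markers were called in that comparison by limma, of which Ppbp had the lowest value, -1.02.

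Itgb5 read 11.24, 11.29 and 11.61 with tamoxifen overload and 11.07 and 10.89 with vehicle overload, against 11.42 (tamoxifen) and 11.79 (vehicle) in sham muscle. Its groups overlapped, since the female tamoxifen array exceeded the tamoxifen sham array, and the difference of -0.54 ± 0.13 (adjusted p = 0.02057) is adjusted for sex. Without the sex term it did not pass, and its 3 other probe sets gave -0.46, -0.21 and -0.46, none of which passed. Itga8, a mesenchymal alpha chain, read 8.32 to 8.92 on overload arrays, against 8.09 (tamoxifen) and 7.39 (vehicle) in sham muscle, and rose by 0.75 ± 0.20 (adjusted p = 0.03297). A second probe set of Itga8, also above background, gave 0.24 without passing. Itgb6 (0.36, levels 8.30 to 9.21) and Itgb8 (0.43, levels 6.34 to 8.52), which with Itgav can release active TGF-beta from its latent complex, did not pass.

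Itga9 and Itga4, alpha chains that bind Vcam1, both rose. Itga9 read 8.39, 8.24 and 8.39 with tamoxifen overload and 9.32 and 8.59 with vehicle overload, against 7.26 (tamoxifen) and 7.498 (vehicle) in sham muscle, a difference of 1.12 ± 0.23 (adjusted p = 0.01134). Here the vehicle overload arrays were higher than all tamoxifen overload arrays. A second probe set of Itga9 above background gave 0.98 for overload minus sham without passing. Itga4, present on myoblasts and on many leukocytes, rose by 0.74 ± 0.21 (adjusted p = 0.04082), with overload arrays at 8.07 to 8.90 and sham arrays at 7.80 (tamoxifen) and 7.34 (vehicle). Among collagen receptors Itga1, which prefers basement membrane collagen, read 7.75 to 8.93 on overload arrays, against 7.70 (tamoxifen) and 7.24 (vehicle) in sham muscle. It rose by 0.82 ± 0.25 (adjusted p = 0.04893), close to the threshold, and its second probe set gave 0.28 without passing. Itga2 (0.27, levels 5.51 to 6.54) and Itga10, a chain of cartilage and connective tissue (0.08, levels 6.10 to 7.92), did not pass.

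Itgbl1 read 11.37, 11.60 and 11.48 with tamoxifen overload and 11.18 and 10.62 with vehicle overload, against 9.40 (tamoxifen) and 8.99 (vehicle) in sham muscle. The rise was 3.74-fold, with a log2 difference of 1.90 ± 0.17 (adjusted p = 0.0003868). Markers of fibroblasts and fibro-adipogenic progenitors moved with it, 6 of 7 rising, at a mean level of 12.42 to 12.89 on overload arrays, against 11.14 and 10.75 on the tamoxifen and vehicle sham arrays; their part in it, and in the rise of laminin chains, was not tested.

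Among the leukocyte integrins Itgb2, Itgam and Itgax rose. Itgb2, the beta chain common to the leukocyte receptors, read 8.79, 9.83 and 9.46 with tamoxifen overload and 8.80 and 9.03 with vehicle overload, against 7.86 (tamoxifen) and 6.57 (vehicle) in sham muscle. It rose by 1.93 ± 0.31 (adjusted p = 0.003916). The sham arrays differed from each other more than the vehicle overload arrays did.

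Itgam, the alpha chain of the complement receptor on macrophages and neutrophils, read 7.29, 8.17 and 7.63 with tamoxifen overload and 7.58 and 7.10 with vehicle overload, against 5.93 (tamoxifen) and 5.94 (vehicle) in sham muscle, both just above background. It rose by 1.52 ± 0.36 (adjusted p = 0.0202). Itgax, found on dendritic cells and on some macrophages, read 6.86, 8.09 and 7.65 with tamoxifen overload and 7.53 and 7.74 with vehicle overload, against 4.75 (tamoxifen, below background) and 6.05 (vehicle) in sham muscle, a rise of 2.18 ± 0.42 (adjusted p = 0.008192). On both genes every overload array exceeded both sham arrays.

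Itgal, Itgae and Itgb7, which lymphocytes carry, did not pass. Itgal, which binds Icam1, was higher on all overload arrays (7.29 to 8.06) than in sham muscle (7.03 with tamoxifen, 6.88 with vehicle), at 0.70 ± 0.33 (adjusted p = 0.1831). Itgae and Itgb7, which together bind E-cadherin, stood at 0.39 ± 0.35 (levels 5.87 to 6.83) and -0.27 ± 0.57 (levels 4.26 to 6.68). Of 11 macrophage and monocyte markers 10 rose, at a mean level of 10.29 to 10.92 on overload arrays, against 8.50 and 7.60 on the tamoxifen and vehicle sham arrays. Neutrophil markers stood at 6.05 to 8.29, against 6.65 and 5.60, with 2 of 6 higher, Csf3r (2.02) and S100a8 (0.90). Dendritic cell markers stood at 5.50 to 6.68, against 5.63 and 4.57, with 0 of 5 called. No marker of T, B or natural killer cells lay above background on all arrays, and limma called 0 of 7. Their part in the leukocyte integrins was not tested.

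**Figure D3:**
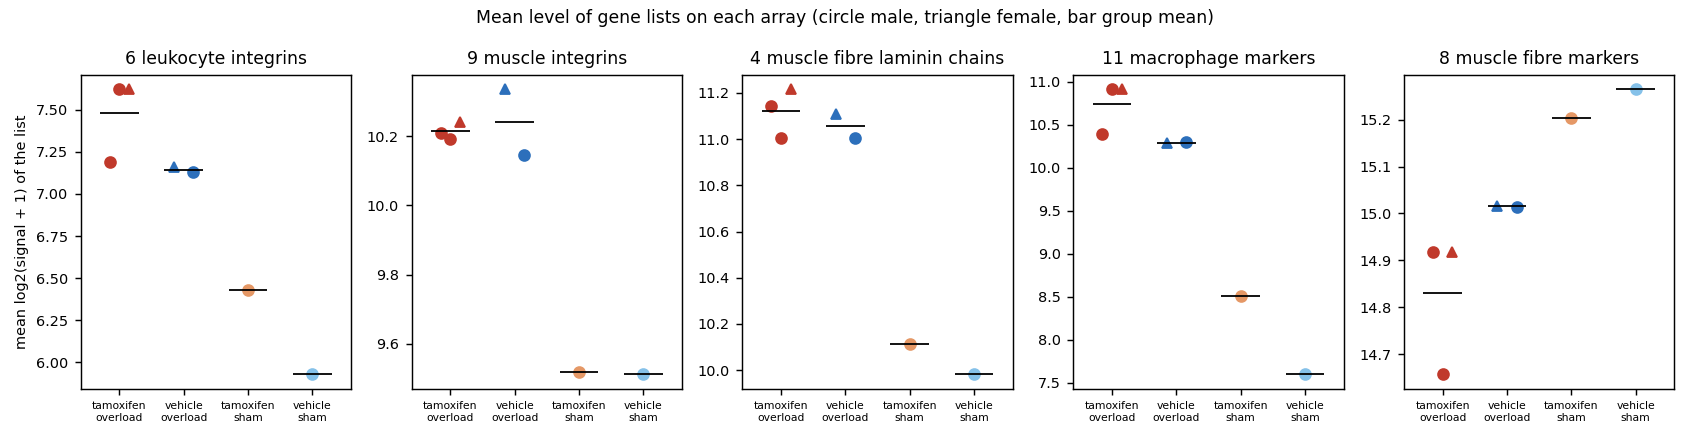
Mean level of 5 gene lists on each array, as log2(signal + 1), with circles for males, triangles for females and a bar at the mean of each group. The mean of the 8 muscle fibre markers is lower on all 5 overload arrays than on both sham arrays, though 0 of 8 were called. The means of the 6 leukocyte integrins, 9 muscle integrins, 4 laminin chains of muscle fibres and 11 macrophage markers are higher there. Single genes of a list can differ, such as Itgb5 of the muscle list, which fell.

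Set side by side, 3 of 6 leukocyte integrins rose with a median difference of 1.11, and 6 of 9 integrins of muscle fibres and myoblasts rose and 1 fell, with a median of 0.76. The mean level of the leukocyte list was 7.13 to 7.62 on overload arrays, against 6.43 and 5.93 on the tamoxifen and vehicle sham arrays, and that of the muscle list 10.14 to 10.34, against 9.52 and 9.51. The muscle list varied less among overload arrays, and its sham arrays nearly coincided. All 9 of its genes lay above background on every array, against 4 of the 6 leukocyte genes. Itgax and Itgb7 did not, and Itgb7 read 6.21 on the tamoxifen sham and 4.26 on the vehicle sham array. The difference between the lists was not tested. Chains of the muscle list occur on other cells too, as Itga4 does on many leukocytes, so the list does not stand for muscle cells alone. Of 8 muscle fibre markers 0 were called, with a median difference of -0.34. Of 11 macrophage markers 10 rose, and of 7 fibroblast markers 6. The part of these cells in either list was not tested.

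Partners of these genes gave the following counts, where 14.7% of all genes rose and 8.16% fell. Of 15 other basement membrane genes 10 rose, among them Col18a1 (2.31), Nid2 (1.66), Sparc (1.63) and Nid1 (1.37); the nidogens link the laminin and collagen sheets. Of 12 ligand genes 7 rose, with Postn at 5.42, Tnc at 3.02, Col1a1 at 2.997 and Fn1 at 2.60. Of 21 adaptors inside the cell 6 rose and 3 fell. Fermt3, the kindlin of blood cells, rose by 1.52, the actin crosslinker Actn1 by 1.43 and Tgfb1i1 by 0.94, and Lims2 fell (-0.89). Named after their values were seen, Itgb1bp2, which encodes the muscle protein melusin that binds the tail of Itgb1, rose by 0.78 and Fermt2, the kindlin of most other tissues, fell (-0.69). Across dystroglycan's own complex the median log2 difference was -0.05, against 0.07 over all genes. Of 13 genes 5 rose (Sntb2 by 1.90, Sntb1 by 1.44, Sgcd by 0.94) and 2 fell (Sgca -0.60, Sspn -0.48), while Dag1, the laminin receptor itself, stood at -0.27 ± 0.14 (adjusted p = 0.212).

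The calls depend on few arrays and on how the variance is modelled. With the sex term kept and no trend of variance with intensity, and in an ordinary linear model, 0 of 35 members and no other gene passed for overload against sham, with 19 and 12 members at an unadjusted p under 0.05, where 28.8% and 22.8% of all genes reached it in the same fits. With neither the sex term nor the trend, 11 members and 2877 of all genes passed, where 4163 of all genes passed in the main fit. At an unadjusted p under 0.05 in limma with the trend there were 20 members, against 34.6% of all genes. Of the 19 members called, 6 kept their call when any array was left out: Lamb1, Itgbl1, Lama4, Itga7, Itga5 and Itga9. Without the male vehicle overload array (replicate 2) 9 members passed in all, and without the vehicle sham array 10. Over all genes, too, fewer were called in both of these fits than in the full fit. Itgb1 and Itgav lost their call only without vehicle overload replicate 2, Itgb2 only without the vehicle sham array, and Lamc1 without either. Itgam, Lama2 and Itgb4 lost it without vehicle overload replicate 2 or either sham array, Itgax without vehicle overload replicate 2 or the tamoxifen sham array, and Itgb3 without tamoxifen overload replicate 2 or the tamoxifen sham array. Itga4 and Itga8 lost it without any 1 of 5 arrays (tamoxifen overload replicates 2 and 3, both vehicle overload arrays, the vehicle sham array), Itgb5 without tamoxifen overload replicate 3, either vehicle overload array or the vehicle sham array, and Itga1 without any array but vehicle overload replicate 2. The differences ranged from 1.28 to 2.58 for Itgb2 and from 1.53 to 2.83 for Itgax, set by which sham array was left out, from 0.40 to 1.10 for Itga8 and from -0.72 to -0.36 for Itgb5. Vehicle overload replicate 2 was the lowest of the 5 overload arrays for 20 of the 35 members, and for 24.6% of all genes.

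Overload was then compared with sham within each treatment, each against a single sham array that is assumed to vary like the overload arrays. With tamoxifen 10 members rose (9.98% of all genes did) and none fell, where 4.9% of all genes fell, and with vehicle 6 rose and 1 fell (6.35% and 2.44% of all genes). At an unadjusted p under 0.05 the counts were 19 of 35 with either treatment, where 29.8% of all genes reached it with tamoxifen and 24.0% with vehicle. Lamb1, Lama4, Itgb1, Itgb2 and Itgbl1 rose with both. Lamb1 rose by 2.40 ± 0.19 with tamoxifen and 2.05 ± 0.21 with vehicle, and Itgbl1 by 2.00 ± 0.22 and 1.80 ± 0.24. Itgb1 rose by 0.77 ± 0.20 with tamoxifen and 0.92 ± 0.22 with vehicle.

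Other members passed with 1 treatment. Itga5 (1.59), Itgam (1.72) and Itgav (0.79) passed with tamoxifen, where vehicle gave 1.35, 1.32 and 0.73. Itgax and Itgb3 also passed with tamoxifen, where the sham array was below background: against the background level they were at least 3.36-fold and 2.97-fold higher. Itga7 passed with vehicle (1.62 ± 0.29, adjusted p = 0.01549), where tamoxifen gave 0.84 ± 0.27 (adjusted p = 0.07057), and Itgb5 fell with vehicle (-0.95 ± 0.18, adjusted p = 0.02016), where tamoxifen gave -0.14 ± 0.17. A test of the difference itself, the interaction, called 0 of the 35 members in limma, and 3 had an unadjusted p under 0.05: Itgb5 (0.81 ± 0.24, adjusted p = 0.745), Itgb6 (-1.16 ± 0.41) and Lamb3 (-2.63 ± 0.91). Across all genes 5.61% had such a p, and an ordinary linear model also called 0 members. The vehicle count of 7 became 13 when tamoxifen overload replicate 1 was left out, 4 when either female array was, and 3 when vehicle overload replicate 2 was. Counts over all genes moved the same way, with 1599 called in the full fit, 2499, 1022 or 1023, and 371.

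The last question was what tamoxifen, meant to remove satellite cells, changed in overloaded muscle. No member passed: limma called 0 of 35, as it called 0% of all genes, and 8 members had an unadjusted p under 0.05, where 10.6% of all genes had. An ordinary linear model also called 0 members and no other gene. The median difference was 0.26 over the members and 0.03 over all genes. On 6 members all tamoxifen arrays lay above both vehicle arrays (16.9% of all genes) and on 3 below both (12.6% of all genes).

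**Figure D4:**
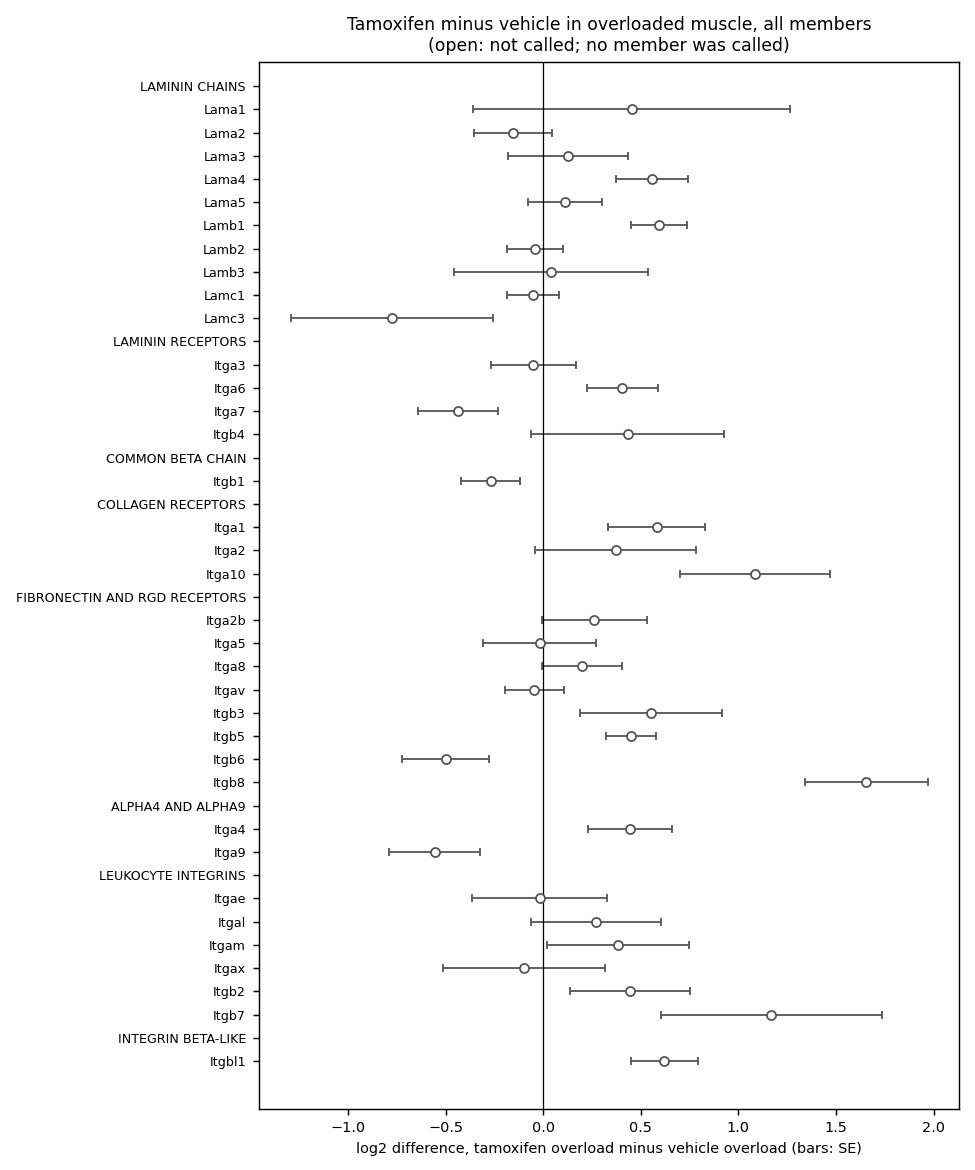
Log2 difference of tamoxifen overload minus vehicle overload for all 35 members, grouped by role, with bars for the SE of the limma fit. All points are open because no member passed; Itgb8 lies farthest from 0, at 1.65.

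Itgb8 had the largest difference of the 35. It read 7.57, 8.28 and 8.52 with tamoxifen overload, against 6.77 and 6.34 with vehicle overload, and 6.89 in tamoxifen sham and 6.50 in vehicle sham muscle. The tamoxifen overload arrays stood above all others. The difference was 1.65 ± 0.31 with an adjusted p of 0.3777 (unadjusted 0.0007799), and it passed without tamoxifen overload replicate 1, at 1.85 (adjusted p = 0.02319), where 227 genes in all were called. Over 18 alternatives it ranged from 1.49 to 1.85, with adjusted p from 0.02319 to 0.8885.

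Lamb1, at 0.59 ± 0.15 (adjusted p = 0.3777), Itgbl1, at 0.62 ± 0.17 (adjusted p = 0.3905), and Itgb5, at 0.45 ± 0.13 (adjusted p = 0.3936), had tamoxifen arrays above both vehicle arrays. So did Itga10, at 1.08 ± 0.38 (adjusted p = 0.424), with 7.92, 7.82 and 7.86 in tamoxifen overload, against 7.70 and 6.10 in vehicle overload, where 1 low array makes most of the gap. Itga9 had tamoxifen arrays below both vehicle arrays, at -0.56 ± 0.23 (adjusted p = 0.4652). For Itga7, the fibre's laminin receptor, the difference was -0.44 ± 0.21 (adjusted p = 0.4874), and for Itgb1 -0.27 ± 0.15 (adjusted p = 0.5436), with overlapping arrays in both. None of these differences passed, which does not show that the treatments were alike.

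The leukocyte integrins had differences between -0.10 (Itgax) and 1.17 (Itgb7, near background), and the muscle list a median of -0.05. Of the 6 leukocyte genes 4 had positive values, with Itgb2 at 0.44 ± 0.31 and Itgam at 0.38 ± 0.36. Macrophage markers beside them had a median of 0.52 and neutrophil markers one of 1.28, with 0 called in either list. The sham arrays, compared without a test, differed most in Lamb3 (tamoxifen minus vehicle 2.67), Lama1 (2.34) and Itgb7 (1.95). Lama1 lay below background on both. Lamb3 and Itgb7 lay below it on the vehicle sham array (4.29 and 4.26) and above it on the tamoxifen sham array (6.96 and 6.21). Among members above background on both sham arrays Itgb2 differed most, at 1.29. Itgax, below background on the tamoxifen sham array, stood at -1.30.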

How the data were processed

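Total RNA (1 µg) was run on 7 one-colour Affymetrix mouse arrays. The submitters' processing notes name Partek, without a role, and the method of probe summary was not stated. What the authors deposited are linear intensities. On every array the mean without the lowest and highest 2% was 499.9 or 500.0, so the values appear to have been scaled array by array, a step no label records. Values scaled so cannot show a change in total RNA.

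From these, log2(value + 1) was taken. Of 45101 probe sets, 34945 with a single symbol, controls excluded, gave 18193 genes; 34741 probe sets matched an Entrez identifier. Probe sets with several symbols (932) and the 64 controls were not used. The limma package (3.58.1, under R 4.3.3) fitted group and sex terms with an intensity trend. It had 2 residual and 5.949 prior degrees of freedom. The two-sided call threshold was 0.05 after Benjamini-Hochberg adjustment over all genes. Background was the 0.95 quantile of the mean level of 76 receptor genes. The sham groups have 1 array each. Of 214 list entries 194 were measured. Members and lists were chosen with earlier results of these data known. Every member is named; partner lists are given by counts with up to 4 of the largest called differences, plus Dag1, Itgb1bp2, Fermt2, Sgca and Sspn, chosen after their values were seen. Itga11 and Itgad were not analysed here. Alternatives were other scalings, pseudocount 16, a background filter, averaged probe sets, no sex term, male or overload arrays alone, other variance models and each array left out. On simulated data for overload against sham (18193 genes, 5 draws, 200 changed), 69% of 2-fold and 91% of 4-fold changes were found, and 9.15% of calls were false. In the data 4163 genes were called, far more than were changed in the simulation, so these rates need not hold for the data. Python 3.11.15, pandas 2.3.3 and matplotlib 3.10.9 were used for tables and figures.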

Additional observations from a re-analysis of the deposited data

Results flagged for a closer look

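In 3 members every tamoxifen overload array lay on one side of the tamoxifen sham array and every vehicle overload array on the opposite side of the vehicle sham array. That is 8.57% of the members, and 9.1% of all genes showed the same pattern. In each, the response to overload with tamoxifen was lower than with vehicle. The difference of responses (interaction) was -0.5943 for Itga3, -0.961 for Itgae and -2.6318 for Lamb3 on the log2 scale. Limma's interaction test called none of them (adjusted p = 0.9805, 0.9791 and 0.7821), and no member or other gene passed in that test. The changes for Itga3 lay between -0.20 and -0.0047 with tamoxifen and between 0.49 and 0.50 with vehicle. For Itgae they lay between -0.47 and -0.07 with tamoxifen and between 0.32 and 0.96 with vehicle. For Lamb3 they lay between -1.21 and -0.16 with tamoxifen and between 0.89 and 3.47 with vehicle, with 3 of its 7 arrays below background. Each response is set against 1 sham array.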

How the results depend on the processing

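All 19 members called for overload against sham kept their sign under each alternative of scaling, pseudocount, filter, probe set average, sex term and variance model. Against 19 members and 4163 of all genes, median centring called 12 and 4450, and the mean of all probe sets 11 and 3199. A model lacking both the sex term and the trend, added after seeing the data, called 11 and 2877. Without the intensity trend, and with an ordinary linear model, 0 members passed in any comparison (19 and 12 had an unadjusted p under 0.05 for overload against sham). Leaving out 1 array gave 9 to 19. With tamoxifen (10 members and 2706 of all genes called) the model lacking both gave 2 and 671. Leaving out 1 array gave the same or a lower number of members, and more or fewer of all genes. With vehicle (7 called) the counts were 11 without the sex term, 4 with male arrays alone, 3 with the mean of all probe sets and 1 with the model lacking both, and 3 to 13 leaving out 1 array. For tamoxifen against vehicle in overload, leaving out 1 array gave 0 to 1, and overload arrays alone gave 0. For the interaction it gave 0 each time. Counts over all genes also changed with the settings and with 1 array left out. Median centring moved the median difference of all genes by -0.29. Relative to that, Itga1, Itga4, Itga8, Itgav, Itgb1, Itgb3, Lama2 and Lamc1 lost their call and Lama5 gained one. Among called members, probe sets below background turned the sign for Itgav (-0.7867 and -0.2293) and Itgb1 (-1.3842), none of them called; among members not called they did so for Itga3 (-0.34), Itgal (-0.05) and Lama3 (-0.38). Without 1 sham array, overload was set against the other one, and comparisons that need the missing array have no value. Leaving out either female array leaves the sex term to the other, so both fits nearly repeat male arrays alone. No paired analysis was possible because the labels number only the male tamoxifen overload mice, and the other numbers are names in accession order.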

Other observations

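A few genes with like names are not subunits by the naming rule and were left out of the counts above. Itgb1bp1, which encodes a protein that binds the tail of Itgb1, stood at 0.07 for overload minus sham (adjusted p = 0.7621). Itgb3bp, a centromere protein, stood at 0.39 (adjusted p = 0.3247). Itgb2l, a close relative of Itgb2, stood at 1.16 (adjusted p = 0.1116). None of the 3 passed.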
